A study of Caenorhabditis elegans with 4 samples.

Results

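The fbxa and fbxc genes are the A and C classes of a large family of C. elegans genes that encode F-box proteins. They were taken here as every gene of the deposited table whose name begins with fbxa or fbxc followed by a number, which gave 236 of 46766 genes, 185 of them fbxa and 51 fbxc. The worms were wild-type N2 at 22 days of age, grown as synchronized populations in S-complete liquid medium with E. coli OP50 as food. They received either GNC (Gengnianchun, a Chinese herbal formula given as a water extract of several crude herbs) at 3.94 mg/mL or the vehicle, water, as the control. Total RNA of whole worms was sequenced in 2 libraries per group, and the comparison asks which transcripts differ between GNC-treated and control worms of the same old age.

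An F-box is a short protein motif that binds a Skp1-like adaptor. In an SCF ubiquitin ligase, the adaptor links the F-box protein to a cullin scaffold and a RING protein, and the F-box protein chooses the target that is marked with ubiquitin, often for destruction by the proteasome. C. elegans carries far more F-box genes than mammals do, most of them in tandem groups of recent duplicates, and the targets of nearly all are unknown. Many FBXA proteins also carry an FTH domain, which is found as well in FOG-2, an F-box protein needed for sperm production in hermaphrodites. FBXA-75 and FBXA-158 are among the few with a described setting, a cullin ligase built on CUL-6 that belongs to the response to intracellular pathogens.

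The total counts were 18639631 and 20088353 under water and 21753657 and 20138896 under GNC. The 236 genes held 0.2241% and 0.2216% of these counts under water and 0.2497% and 0.2481% under GNC. Levels are given as raw counts, as CPM, in which each count is divided by the library size after scaling by the trimmed mean of M-values (TMM), or, where genes are compared with each other, as FPKM, which divides by gene length. Of the 236 genes, 217 were annotated as protein coding and 19 as pseudogenes, and the tested genes had a median of 4 exons in the fbxa class and 3 in the fbxc class.

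A filter on low counts left 174 genes for testing, 143 fbxa and 31 fbxc. Of the 62 that were not tested, 42 were fbxa, with at most 16 counts in any library, and 20 were fbxc, with at most 12. No count was recorded in any library for 5 fbxa and 6 fbxc genes. These 6 fbxc genes lay in a run of 10 fbxc genes on chromosome IV (891239 to 913167, WBcel235), of which only fbxc-12 was tested, with 12 and 5 counts under water and 12 and 10 under GNC. Several genes of that run share a current name in the Ensembl annotation, among them fbxc-9, fbxc-10 and fbxc-11 with fbxc-8. How the counting treated reads that match several copies is not given in the sources used here, so values of near-identical genes are uncertain.

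With all 4 libraries, the called fbxa genes were higher under GNC, whereas most called fbxc genes were lower, a difference between the classes that was not tested. Calls required a Benjamini-Hochberg FDR under 0.05 over all 16341 genes tested in edgeR together with a rise or fall of 1 or more on the log2 scale. By this rule 5 fbxa genes rose and 0 fell, whereas 2 fbxc genes rose and 8 fell. The fbxa counts were 8 higher and 2 lower without control replicate 1, and 10 and 11 were called higher with upper quartile scaling and with library totals. A test against the 2-fold threshold itself called 0 genes of either class. Over all genes tested, 4.97% were called higher and 2.23% lower. Of the tested fbxa genes 3.50% were called higher, a share below that of all genes, and 0% lower. Of the tested fbxc genes 6.45% were called higher and 25.8% lower. With FDR under 0.05 and no fold threshold, 34 fbxa genes were higher and 12 lower, and 62 had an unadjusted p under 0.05. By the same measure 4 fbxc genes were higher and 12 lower, and 18 had an unadjusted p under 0.05. The background under this rule was 19.8% of all genes tested higher and 20.5% lower, against 23.8% and 8.39% of the tested fbxa genes and 12.9% and 38.7% of the tested fbxc genes. The labels do not say that the 2 libraries of a group came from separate cultures, so the tests measure the spread between these libraries, which may be technical. In RNA of whole worms, fewer cells that express a gene and less of its RNA per cell cannot be told apart.

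The median log2 fold change of the tested fbxa genes was 0.25, with quartiles of -0.04 and 0.48. The median of the fbxc genes was -0.21, with quartiles of -1.20 and 0.23, and the median over all genes tested was 0.02. The background depends on the level. At a mean of 50 to 200 counts the median was 0.33 for fbxa genes and 0.20 for all genes tested. Over 200 counts these medians were 0.17 and -0.05. The values under GNC were both above those under water for 79 fbxa and 9 fbxc genes, and below them for 23 fbxa and 15 fbxc genes. Over all genes tested these shares were 36.5% above and 34.5% below. At a mean of 50 to 200 counts, 49.45% of all genes tested were above and 20.4% below. In that range 65.3% of the fbxa genes were above and 10.2% below. The fbxb genes, another class of the same naming series, gave a median of -0.82 over 65 tested, with 1 called higher and 23 lower.

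Among the fbxa genes, fbxa-142 had the largest rise (chromosome V, 16129409 to 16130979). It was counted 9 and 9 times under water and 26 and 37 times under GNC, a log2 fold change of 1.58 ± 0.39 (SE, edgeR FDR = 0.00998). Both GNC values were well above both control values, but at low counts, and without GNC replicate 2 the call was lost at a log2 fold change of 1.25. 

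The genes fbxa-224 and fbxa-201 rose from somewhat higher counts. The control libraries held 50 and 59 counts of fbxa-224 (chromosome II, 7546820 to 7548129) and the GNC libraries 176 and 161, a log2 fold change of 1.41 ± 0.17 (SE, edgeR FDR = 0.000214). For fbxa-201 (chromosome V, 1975418 to 1977261) the counts were 40 and 50 against 127 and 118, a log2 fold change of 1.23 ± 0.19 (SE, edgeR FDR = 0.000904). In both genes the libraries of a group lay close together and far from those of the other group.

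The remaining called fbxa genes were fbxa-183 and fbxa-125, the latter the most abundant of the called genes at a mean of 18.6 FPKM. Counts of fbxa-183 (chromosome V, 5781317 to 5782787) were 93 and 72 under water and 225 and 224 under GNC, a log2 fold change of 1.23 ± 0.17 (SE, edgeR FDR = 0.000454). Counts of fbxa-125 (chromosome I, 10646762 to 10647777) were 211 and 169 against 519 and 421, a log2 fold change of 1.08 ± 0.14 (SE, edgeR FDR = 0.000323). The groups did not overlap in either gene. The rise of fbxa-125 fell below the 2-fold line without control replicate 2 (0.89) and without GNC replicate 1 (0.99).

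**Figure D1:**
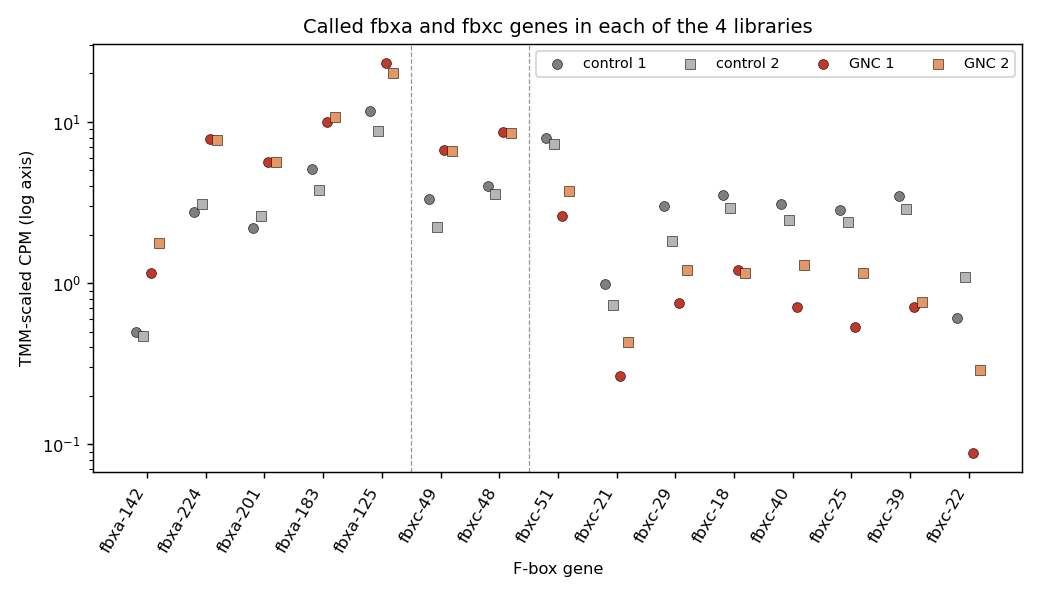
TMM-scaled CPM on a log axis of the 5 fbxa genes called higher (left), the 2 fbxc genes called higher (middle) and the 8 fbxc genes called lower (right), with 1 point for each of the 4 libraries (grey control, red and orange GNC, circles replicate 1, squares replicate 2). The GNC and control points of each gene do not overlap, and most fbxc genes called lower sit below 4 CPM under water.

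The 8 fbxc genes that fell were all on chromosome II. The largest fall at a reasonable count was that of fbxc-39 (988737 to 991137), which was counted 63 and 55 times under water and 16 and 16 times under GNC. Its mean level went from 3.17 ± 0.42 to 0.739 ± 0.041 CPM (SD, n = 2), which gave a log2 fold change of -2.09 ± 0.28 (SE, edgeR FDR = 0.000398). Its direct neighbour fbxc-40 (986003 to 988667) had 56 and 47 counts against 16 and 27, a log2 fold change of -1.47 ± 0.32 (SE, edgeR FDR = 0.00538). Both genes were lower in each GNC library than in either control library.

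Another pair of the same stretch, fbxc-18 and fbxc-29, also fell. Counts of fbxc-18 (965580 to 966959) were 64 and 56 under water and 27 and 24 under GNC, a log2 fold change of -1.45 ± 0.25 (SE, edgeR FDR = 0.00171). Counts of fbxc-29 (916051 to 917470) were 55 and 35 against 17 and 25, a log2 fold change of -1.31 ± 0.35 (SE, edgeR FDR = 0.0145). The control libraries of fbxc-29 were far apart, and its call was lost without control replicate 1 (-0.91) and without GNC replicate 1 (-1.01).

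Just before this stretch lay fbxc-51 (868814 to 871700), the most abundant of the fbxc genes called lower, with 145 and 140 counts under water and 59 and 78 under GNC. Its log2 fold change was -1.27 ± 0.20 (SE, edgeR FDR = 0.000872). Farther along the chromosome, fbxc-25 (2294656 to 2296103) went from 52 and 46 counts to 12 and 24, a log2 fold change of -1.65 ± 0.35 (SE, edgeR FDR = 0.00454). The GNC libraries of fbxc-25 lay far apart, but both stayed below the control libraries.

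The neighbours fbxc-22 (1689696 to 1691077) and fbxc-21 (1691557 to 1692907) fell at the lowest counts. Counts of fbxc-22 were 11 and 21 under water and 2 and 6 under GNC, a log2 fold change of -2.17 ± 0.59 (SE, edgeR FDR = 0.0155). Counts of fbxc-21 were 18 and 14 against 6 and 9, a log2 fold change of -1.29 ± 0.45 (SE, edgeR FDR = 0.0430). The call of fbxc-21 was lost whichever library was left out, with values from -1.67 to -0.98. That of fbxc-22 was lost without control replicate 2 (-1.68) and without GNC replicate 1 (-1.55). The fbxa gene of this group, fbxa-184, had 146 and 153 counts against 243 and 221, a log2 fold change of 0.42 ± 0.12 (SE, edgeR FDR = 0.0229), and was named here after its values were seen.

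Most fbxc genes called lower were weakly expressed. With the filter on low counts removed, 3 of the 8 remained called, namely fbxc-39, fbxc-18 and fbxc-51, and the same number remained with limma on FPKM values. Of the 14 tested fbxc genes with a mean under 50 counts, 7 were called lower and 0 higher, with a median log2 fold change of -1.21, and 8 of the 14 had an FDR under 0.05. Among the 46 tested fbxa genes in the same range of counts, 0 were called lower and 1 higher, with a median of 0.31. Over all 3528 tested genes in that range, 5.24% were called lower and 7.65% higher, with a median of 0.145. For fbxc genes with a mean of 50 to 200 counts and of over 200 counts, the medians were 0.06 (9 genes) and 0.05 (8 genes), and these ranges held 1 of the 8 called lower, fbxc-51. In each of these ranges 2 fbxc genes, fbxc-51 included, were lower at an FDR under 0.05.

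The 2 fbxc genes that rose were also on chromosome II. The control libraries held 60 and 43 counts of fbxc-49 (2084129 to 2084891) and the GNC libraries 150 and 138, a log2 fold change of 1.26 ± 0.21 (SE, edgeR FDR = 0.00116). For fbxc-48 (739598 to 740899) the counts were 73 and 68 against 196 and 178, a log2 fold change of 1.19 ± 0.16 (SE, edgeR FDR = 0.000357). These genes were expressed above those called lower, at means of 7.34 and 6.49 FPKM, against 0.396 to 3.24 FPKM for the latter.

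None of the 5 most abundant genes of either class was called. In the fbxa class these were fbxa-95, fbxa-140, fbxa-163, fbxa-108 and fbxa-210, with means of 97.6, 89.4, 81.8, 78.1 and 65.3 FPKM. The level of fbxa-140 was 93.0 and 96.8 CPM under water and 96.7 and 97.8 CPM under GNC, a log2 fold change of 0.03 ± 0.06 (SE, edgeR FDR = 0.666). That of fbxa-95, whose span overlaps fbxa-94, was 104.2 and 102.9 against 92.0 and 97.6 CPM, a log2 fold change of -0.13 ± 0.06 (SE, edgeR FDR = 0.111). The FDR was under 0.05 for a pair of them with small falls, fbxa-163 (-0.39 ± 0.07, edgeR FDR = 0.00203) and fbxa-210 (-0.34 ± 0.07, edgeR FDR = 0.00336). For fbxa-108 the log2 fold change was -0.16 ± 0.06 (SE, edgeR FDR = 0.0524).

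In the fbxc class the most abundant genes were fbxc-45, fbxc-44, fbxc-50, fbxc-43 and fbxc-47, at means of 85.5, 66.0, 59.3, 39.8 and 22.2 FPKM. They made up 68.9% and 70.4% of the summed fbxc CPM under water and 70.4% and 69.4% under GNC. The level of fbxc-45 was 85.5 and 91.2 CPM under water and 89.2 and 95.7 CPM under GNC, with overlapping groups and a log2 fold change of 0.06 ± 0.06 (SE, edgeR FDR = 0.458). Of the 5, only fbxc-44 had an FDR under 0.05, with 70.6 and 69.95 CPM against 60.6 and 60.1 CPM and a log2 fold change of -0.22 ± 0.06 (SE, edgeR FDR = 0.0165). The log2 fold changes of fbxc-50, fbxc-43 and fbxc-47 were 0.03, 0.19 and -0.23. The span of fbxc-47 overlaps M02B7.7 and anr-18, and since the use of strand in counting is not given in the sources used here, reads of overlapping genes cannot be told apart.

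The 5 most abundant fbxa genes summed to 509.7 and 517.5 CPM under water and 447.8 and 447.0 CPM under GNC, while the other fbxa genes summed to 1391 and 1411 CPM against 1579 and 1555 CPM. Over the whole class the summed fbxa level was 1901 and 1928 CPM under water and 2026 and 2002 CPM under GNC, a log2 ratio of 0.07, or 0.18 when scaled by library totals without TMM. The summed fbxc level was 398.5 and 395.9 CPM against 384.5 and 396.7 CPM, a log2 ratio of -0.02, with overlapping groups. Scaled by library totals, this ratio turned to 0.08. The 8 fbxc genes that fell summed to 25.5 and 21.6 CPM under water and 6.88 and 10.04 CPM under GNC, a small part of the class.

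**Figure D2:**
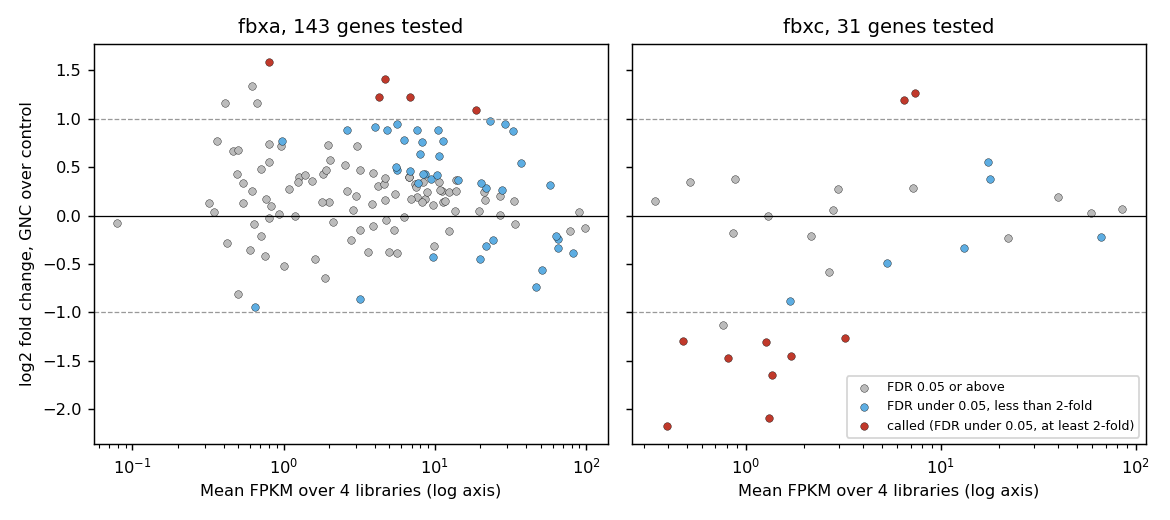
Log2 fold change (GNC over control) against the mean FPKM over the 4 libraries, on a log axis, for the 143 fbxa and 31 fbxc genes tested. Each point is 1 gene, red where called, blue where the FDR was under 0.05 without a 2-fold change, and dashed lines mark 2-fold. The fbxc genes called lower lie between 0.396 and 3.24 FPKM, and fbxa and fbxc genes near the top of the FPKM range lie close to 0.

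The 34 fbxa genes that were higher at an FDR under 0.05, the 5 called genes included, ranged from 0.26 to 1.58 in log2 fold change, with a median level of 8.28 FPKM. The 12 that were lower ranged from -0.95 to -0.22, with a median level of 35.6 FPKM, and 9 of the 12 were on chromosome V. Falls were also more frequent at higher counts among all genes tested. At a mean of 50 to 200 counts, 27.02% of these were higher and 10.14% lower, and over 200 counts 20.97% and 29.8%. For the fbxa genes the shares were 32.65% and 2.041% at 50 to 200 counts, and 33.33% and 20.83% over 200 counts. The rule for naming genes also held fbxa-158, fbxa-182 and fbxa-75. The level of fbxa-158 was 8.86 and 8.82 CPM under water and 14.2 and 15.8 CPM under GNC, a log2 fold change of 0.76 ± 0.12 (SE, edgeR FDR = 0.000902). The level of fbxa-182 was 14.97 and 16.55 CPM against 27.7 and 30.4 CPM, a log2 fold change of 0.88 ± 0.10 (SE, edgeR FDR = 0.00016). Both genes had an FDR under 0.05 and separate groups without reaching 2-fold. Counts of fbxa-75 were 33 and 20 under water and 34 and 48 under GNC, with a log2 fold change of 0.41 ± 0.34 (SE, edgeR FDR = 0.372), and its groups overlapped in CPM.

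The genes nearest to the threshold were chosen after their values were seen. With counts of 313 and 388 against 782 and 819, fbxa-155 had a log2 fold change of 0.98 ± 0.11 (SE, edgeR FDR = 0.000126). Among the fbxc genes, fbxc-24 had 34 and 13 counts against 16 and 9, a log2 fold change of -1.13 (edgeR FDR = 0.107), and its groups overlapped in counts. The fbxa genes fbxa-57, fbxa-171 and fbxa-42 had log2 fold changes of 1.34, 1.16 and 1.17 at mean counts of 8, 17.2 and 10, with FDR values of 0.0594, 0.0610 and 0.0682 in edgeR.

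The genes lie in groups along the chromosomes. With a gap of at most 20 kb between neighbours, 174 of the 236 genes fell into 33 groups and 62 stood alone. Of the 51 fbxc genes 37 were on chromosome II, and of the 185 fbxa genes 73 were on chromosome V and 68 on chromosome III. All called fbxc genes, in both directions, were among the 27 tested on chromosome II, and the 4 tested fbxc genes on other chromosomes had log2 fold changes from -0.23 to 0.15.

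The largest group of fbxc genes held 20 of them on chromosome II (907535 to 993179), from fbxc-24 to fbxc-42. Of the 13 tested there, 4 were called lower (fbxc-29, fbxc-18, fbxc-40 and fbxc-39), 6 had an FDR under 0.05 and a lower level, and 0 were called higher, with 7 at an unadjusted p under 0.05. Their summed level was 41.4 and 35.5 CPM under water and 24.6 and 26.9 CPM under GNC, and their median log2 fold change was -0.59. The change was uneven within the group: fbxc-42, next to fbxc-39, had 53 and 58 counts against 66 and 68, a log2 fold change of 0.06, and fbxc-7 had 70 and 72 counts against 102 and 97, a log2 fold change of 0.27, both named after their values were seen.

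The fbxc genes outside this group gave 2 called higher and 4 called lower of 18 tested, with a median of 0.05. Between the fbxc genes of the group lay 15 other genes, of which 9 were tested. Their median log2 fold change was 0.03, with acs-15, an acyl-CoA synthetase gene, called higher (1.44, edgeR FDR = 0.00126) and sdz-4 called lower (-1.10, edgeR FDR = 0.0236). The difference between the fbxc genes and these other genes was not tested.

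Chromosome III held 3 large groups of fbxa genes, in which 0 genes were lower at an FDR under 0.05. All 8 tested genes of a group of 11 (933464 to 963526) had positive log2 fold changes, from 0.05 to 0.95, and 5 of them had an FDR under 0.05. The highest were the neighbours fbxa-60, with 397 and 453 counts against 998 and 909 (0.95 ± 0.08, edgeR FDR = 4.52e-05), and fbxa-59, with 390 and 417 counts against 900 and 823 (0.88 ± 0.08, edgeR FDR = 5.98e-05). The span of fbxa-59 overlaps T12B5.9. In the largest group, 30 fbxa genes (1236015 to 1349420), 17 of 22 tested genes had positive values, and the median was 0.35. At an FDR under 0.05, 5 of the 22 were higher, a share close to the 19.8% of all genes tested. In the remaining group, 16 fbxa genes (2217204 to 2314073), 9 of 14 tested genes had positive and 5 negative values, the median was 0.21, and 1 was higher at an FDR under 0.05. Over the 53 tested fbxa genes of chromosome III, 13 (24.5%) had an FDR under 0.05 and were higher and 0 were lower, and 43 of the 53 had positive values. Over all 16341 genes tested, 19.8% were higher and 20.5% lower at this FDR, and 8482 had positive values.

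**Figure D3:**
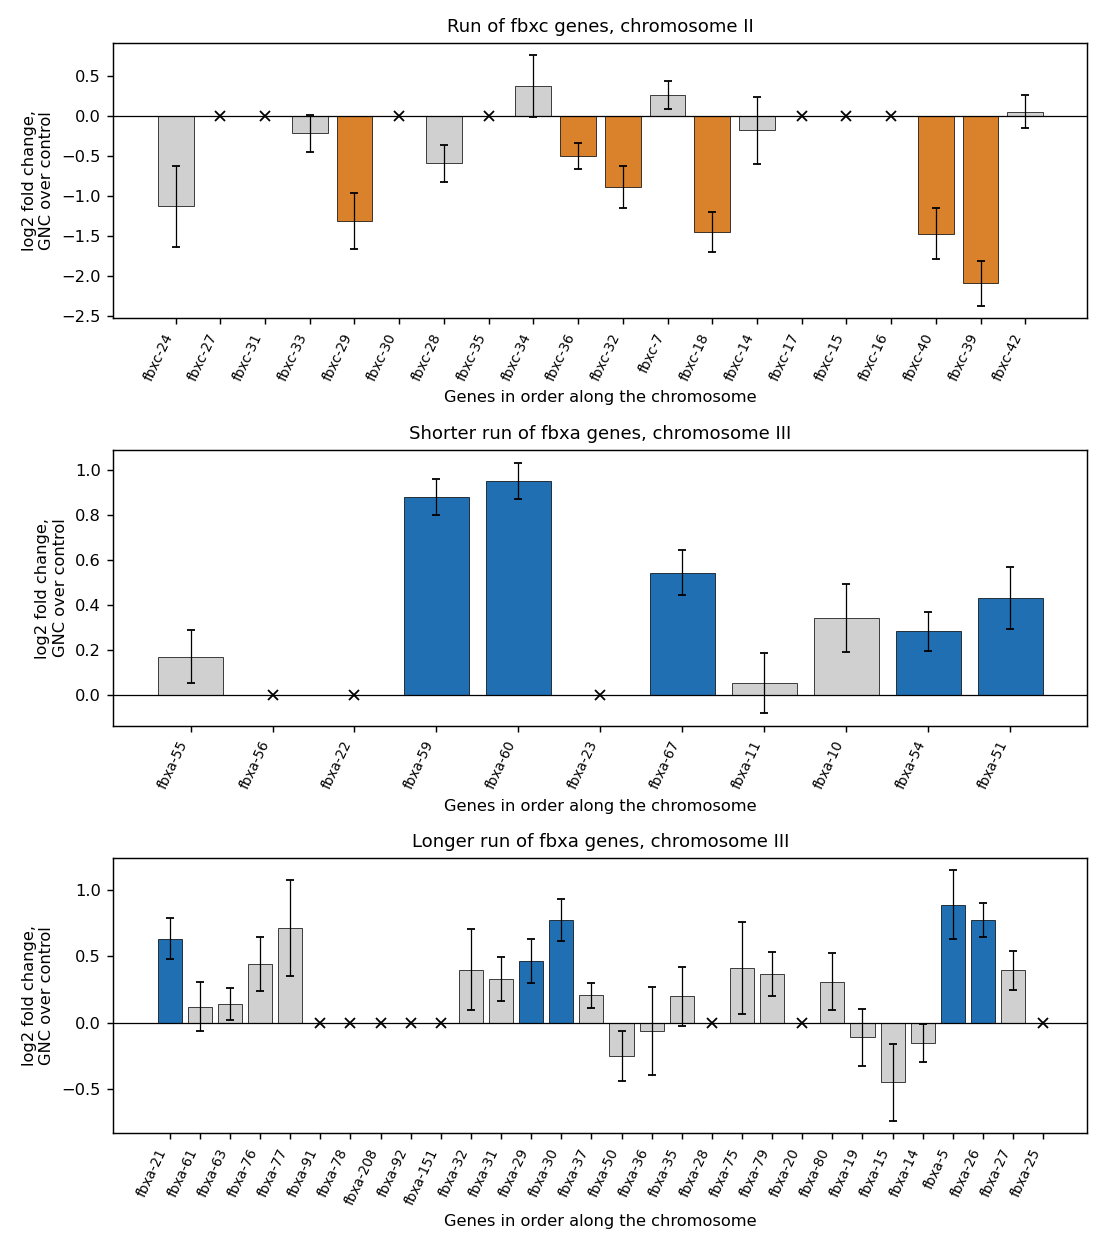
Log2 fold change (GNC over control) with its SE for the genes of 3 groups, in order along the chromosome: 20 fbxc genes on chromosome II (top), 11 fbxa genes on chromosome III (middle) and 30 fbxa genes on chromosome III (bottom). Coloured bars had an FDR under 0.05, grey bars did not, and crosses mark genes not tested. Values are mostly below 0 in the top panel, all above 0 in the middle and mostly above 0 at the bottom.

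On chromosome V, 13 of 59 tested fbxa genes were higher (22.0%) and 9 lower (15.3%) at an FDR under 0.05. These shares are near the 19.8% higher and 20.5% lower of all genes tested. The group of fbxa-107, fbxa-210 and fbxa-211 (18123977 to 18128881) was chosen for description after its values were seen, and each of its genes had a negative log2 fold change. The level of fbxa-107 was 61.0 and 61.0 CPM under water and 37.4 and 36.0 CPM under GNC, a log2 fold change of -0.73 ± 0.07 (SE, edgeR FDR = 6.3e-05). The value of fbxa-211 was -0.09 ± 0.08 (SE, edgeR FDR = 0.4). Elsewhere, fbxa-188, with 5.89 and 5.59 CPM under water against 10.4 and 10.8 CPM (0.88 ± 0.13, edgeR FDR = 0.000772), spans the adaptor gene skr-5 and also overlaps fbxa-189.

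F-box proteins act with partners, and 38 genes for Skp1-related adaptors, cullins, RING proteins and their regulators were followed as a list. Of these, 37 were found and 35 tested. The Skp1-related gene skr-13 had no count in any library. The list gave 1 gene called higher and 5 called lower, with 5 higher and 16 lower at an FDR under 0.05, and a median log2 fold change of -0.17 against 0.02 over all genes tested. At this FDR, 14.29% of the tested list genes were higher and 45.71% lower, against 19.8% and 20.5% of all genes tested. The list genes had a median of 932.2 counts. For all genes tested with a mean over 200 counts, the shares were 20.97% higher and 29.8% lower. The difference between the list and these genes was not tested.

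All 5 genes called lower encode Skp1-related adaptors. Counts of skr-9 were 138 and 136 under water and 43 and 38 under GNC, a log2 fold change of -1.97 ± 0.19 (SE, edgeR FDR = 7.05e-05). Counts of its neighbour skr-8 were 302 and 321 against 103 and 119, a log2 fold change of -1.70 ± 0.14 (SE, edgeR FDR = 3.53e-05). For skr-7, the most abundant of them, they were 914 and 983 against 365 and 418, a log2 fold change of -1.49 ± 0.10 (SE, edgeR FDR = 2.05e-05). In each of these genes the replicate libraries were close and the groups far apart. The values of skr-15 and skr-14 were -1.37 ± 0.12 (edgeR FDR = 4.70e-05) and -1.35 ± 0.13 (edgeR FDR = 7.28e-05). These adaptors are paralogs, so reads may have been split between them.

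None of cul-1, skr-1 and rbx-1, which encode subunits of the SCF ligase, was called. The cullin gene cul-1 had 2651 and 2778 counts under water and 3302 and 2835 under GNC, a log2 fold change of -0.04 ± 0.06 (SE, edgeR FDR = 0.617). The main Skp1 gene skr-1 had 7581 and 8015 counts against 8112 and 7458, a log2 fold change of -0.22 ± 0.06 (SE, edgeR FDR = 0.0147). The RING subunit gene rbx-1 had 3080 and 3119 counts against 2813 and 1448, a log2 fold change of -0.77 ± 0.20 (SE, edgeR FDR = 0.0112). The level of rbx-1 was 124.9 and 69.5 CPM in the GNC libraries, and without GNC replicate 2 its log2 fold change was -0.41 (edgeR FDR = 0.000272). In the same library the adaptor gene skr-20 was listed at 0, against 436, 489 and 643 counts in the other 3 libraries. The counts of rbx-1 and skr-20 in GNC replicate 2 are therefore in doubt, and no direction is read for skr-20.

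The partners linked to the CUL-6 ligase moved up. The adaptor gene skr-5, which was called, had 259 and 306 counts under water and 723 and 686 under GNC, a log2 fold change of 1.10 ± 0.10 (SE, edgeR FDR = 4.66e-05). It lies within the span of fbxa-188, which was also higher. Since the use of strand in counting is not given, the reads of skr-5 and fbxa-188 cannot be told apart. At an FDR under 0.05 without 2-fold change, cul-6 gave 0.39, the RING gene rcs-1 0.60, skr-3 0.39 and skr-4 0.19. A list of 15 genes of the intracellular pathogen response holds these 5 together with fbxa-75 and fbxa-158. Of its 14 tested genes, 10 were higher and 0 lower at an FDR under 0.05, with 10 at an unadjusted p under 0.05. The 10 include the 5 genes just given. Over all genes tested, 19.8% were higher and 20.5% lower by this measure. Only skr-5 was called, and the list had a median of 0.46 on the log2 scale. A further gene of the list, zip-1, a transcription factor gene of this response, was named here outside the rule for naming genes. Its counts were 872 and 874 against 1460 and 1418, a log2 fold change of 0.51 ± 0.07 (SE, edgeR FDR = 0.000383). The tested genes of the list without an FDR under 0.05 were pals-25 (0.12), F26F2.1 (-0.03), F26F2.3 (0.59) and fbxa-75 (0.41).

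**Figure D4:**
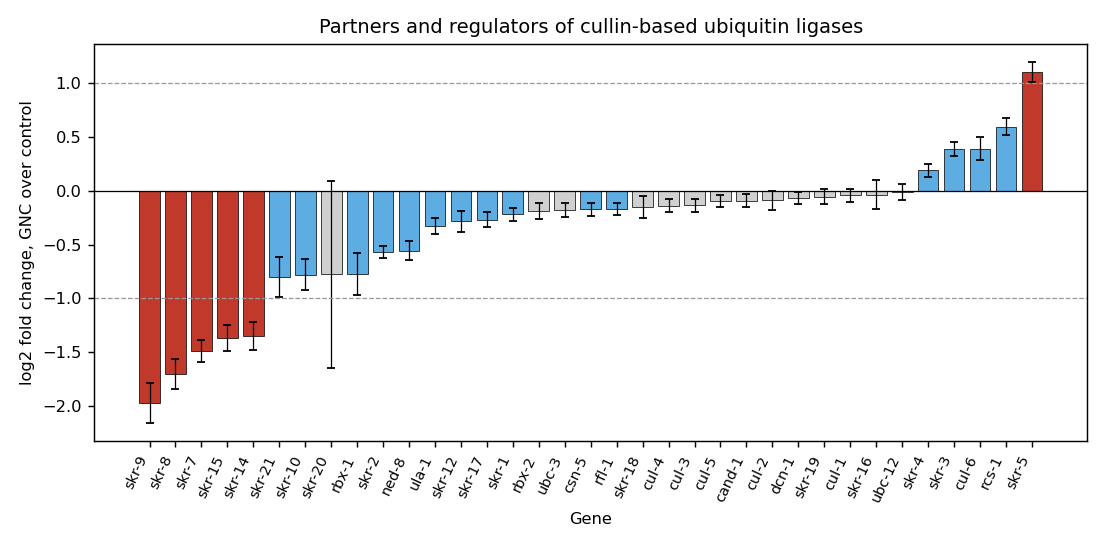
Log2 fold change (GNC over control) with its SE for the 35 tested genes of the list of cullin ligase partners, in order of their value. Red bars were called, blue bars had an FDR under 0.05 without a 2-fold change, grey bars did not, and dashed lines mark 2-fold. At the left are 5 Skp1-related genes called lower, at the right skr-5, rcs-1, cul-6, skr-3 and skr-4, and the long error bar is skr-20.

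Other F-box genes with known roles and names outside both classes (lin-23, sel-10, fog-2, fbxl-1, dre-1 and mec-15) changed little. Of these, fog-2 (chromosome V, 20199255 to 20200641) is outside the fbxa class by name only. It lies within a group of 4 fbxa genes (20187710 to 20204503), whose median log2 fold change was -0.25. Of the 6, 0 were called, 4 had an unadjusted p under 0.05, and 2 had an FDR under 0.05, both lower. These were fog-2 (-0.32 ± 0.07, edgeR FDR = 0.00395) and mec-15 (-0.25 ± 0.06, edgeR FDR = 0.0109). The median of the 6 was -0.09, and it was 0.01 when libraries were scaled by their totals or when FPKM values were used.

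Markers of cell types and stages moved between the groups beside these changes. As a background, 19.8% of all genes tested were higher and 20.5% lower at an FDR under 0.05. For all genes tested with a mean over 200 counts, these shares were 20.97% and 29.8%. The oocyte, sperm, germline and intestinal lists below had median counts over 200. The differences between the marker lists and all genes were not tested. Of 15 oocyte genes, 13 were lower and 2 higher at an FDR under 0.05, with a median log2 fold change of -0.58. Their summed level was 5125 and 5781 CPM under water and 5325 and 5747 CPM under GNC. The 2 higher genes held a large part of this sum: perm-4, at a mean of 1884 against 2847 CPM, and perm-2, at 742.2 against 891.6 CPM. The sum therefore hides the fall of the other 13. Of 10 sperm genes, 7 were higher and 0 lower, with summed levels of 322 and 329 against 436 and 448 CPM. Of 8 early embryo genes, 5 were tested and 1 was lower, and the sums were 10.9 and 8.82 against 8.66 and 7.83 CPM. Germline genes gave 3 lower of 5, with 2168 and 2161 against 1688 and 1766 CPM. Intestinal genes gave 3 lower and 1 higher of 5, with 2660 and 3016 against 1895 and 1770 CPM. Most of this sum came from vit-5, at a mean of 1589 against 896.2 CPM, and vit-2, at 785.0 against 597.5 CPM. The third lower gene was asp-1, while elt-2 (0.25, edgeR FDR = 0.0184) and ges-1 (0.37, edgeR FDR = 0.0543) had positive log2 fold changes. Of 8 larval genes, 4 were tested and 2 were lower, and the sums were 35.9 and 37.4 against 37.6 and 37.9 CPM. Most of the larval sum came from nas-37, at a mean of 25.6 against 29.4 CPM. No marker of these lists was at 0 in all 4 libraries. The part of these markers in the changes of the F-box genes was not tested.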

How the data were processed

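The authors deposited raw counts per gene and FPKM values for 4 libraries. The processing notes name CASAVA 1.8, TopHat2 2.1.0, Cuffdiff and the build WBcel235 without their roles. The counter, its treatment of multiply mapped reads and its use of strand are not given in the sources used here. All 236 genes matched the Ensembl annotation of WBcel235 by identifier, and 634 of 634 tRNA genes had identical positions. Coordinates are those of the deposited table.

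The counts were tested in edgeR 4.0.16 (R 4.3.3) with TMM scaling, filterByExpr and the quasi-likelihood F-test, with treatment as the only term and Benjamini-Hochberg adjustment over 16341 genes. The procedure was tested on simulated data. SE is the log2 fold change divided by the square root of F. Fold changes are GNC over control. FPKM values served for levels and for limma 3.58.1 on log2(FPKM + 0.1). Replicates differed by more than sampling noise (chi-square per degree of freedom 6.72 in the control and 6.98 in the GNC group). The biological coefficient of variation was 6.67%.

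Named genes were all called members, the 5 most abundant of each class by FPKM, fbxa-75, fbxa-158 and fbxa-182, the called genes of the partner lists up to 5 each, and cul-1, skr-1 and rbx-1. Members and lists were chosen with earlier results of these data known. Some list genes were matched by identifier, since the deposited table gives them another name.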

Additional observations from a re-analysis of the deposited data

How the results depend on the processing

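Under the alternatives, 327 values of the 28 named F-box genes all kept their direction, and 22 of them no longer passed the call. Only genes called with the main settings could lose a call, so the 22 came from a part of the 327 values. DESeq2 1.42.0 gave no adjusted p (NA) for fbxc-22, fbxc-21 and fbxa-142. The count of fbxa genes called higher was 10 with upper quartile scaling, 11 with library totals and 34 with no fold threshold, and 5 to 8 with 1 library left out, the 8 without control replicate 1. The count called lower was 12 with no fold threshold and 0 to 2 with 1 library left out, the 2 without control replicate 1. The fbxc genes called higher became 4 with no fold threshold, and those called lower became 3 with no filter and 3 with limma on FPKM. A test against 2-fold itself called 0 fbxa and 0 fbxc genes in either direction. The fbxa median was 0.33 with upper quartile scaling, 0.36 with library totals and 0.36 with limma. Library totals moved the median of all genes tested from 0.02 to 0.12. The log2 ratio of summed fbxa levels was 0.1755 with library totals and 0.0538 with rescaling to a median of 0, and the fbxc ratio turned to 0.0778 with library totals. The partner list median was -0.0948 with upper quartile scaling, -0.0703 with library totals, -0.0696 with limma and -0.21 to -0.13 with 1 library left out. The median of the other F-box genes was -0.0171 with upper quartile scaling, turned to 0.0073 with library totals and 0.00925 with limma, and was -0.142 to -0.0449 with 1 library left out. The pathogen response median was 0.54 with upper quartile scaling, 0.56 with library totals, 0.53 with no filter, 0.56 with limma and 0.47 to 0.55 with 1 library left out. Replicate numbers did not pair the libraries (correlation 0.04 across genes), and with the replicate block 5 fbxa genes were called higher and 0 lower, and 2 fbxc genes higher and 9 lower. The cause of these changes was not tested. Summing members of at least 90% protein identity was not run, since no protein sequences were used here. With 2 libraries per group and most called fbxc genes under 100 counts, calls near the threshold are the least certain.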
